A study of Mus musculus with 16 samples.

Results

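Neurotrophins and the GDNF family are secreted survival and growth factors of peripheral neurons, and this account covers 4 of their genes together with 4 receptor genes in cultured pancreatic stellate cells and sympathetic ganglia. The ligand genes were Bdnf (brain-derived neurotrophic factor), Ntf3 (neurotrophin 3), Gdnf (glial cell line-derived neurotrophic factor) and Artn (artemin). The receptor genes were Ntrk2 (TrkB), Ntrk3 (TrkC), Ngfr (the low-affinity neurotrophin receptor) and Ret, the signaling receptor of the GDNF family. Members were taken by gene name, and all 8 were found as protein-coding rows in both tables, among 56941 genes of which 21684 were protein-coding.

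Bulk stranded mRNA sequencing was done on 16 libraries from indirect cocultures, in which the cells on an insert and the explants in the well shared medium without contact for about 70 hours. Stellate cells were mPSC1, 1 immortalized murine line, cultured alone (PSC, n = 3) or above ganglion explants (PSC+SCG, n = 3). Explants were superior cervical ganglia (SCG) of wild-type C57BL/6J pups at postnatal day 1 to 4, with 8 to 13 explants in a well. They were kept alone (SCG, n = 3), below mPSC1 cells (SCG+PSC, n = 4) or below NIH 3T3 cells, a mouse embryonic fibroblast line that served as the control fibroblast (SCG+MEF, n = 3), with 10000 cells on each insert. All groups were otherwise untreated, and the explants had been prepared in medium with an added growth factor. Many explants share a well, and the labels do not say whether replicates were separate cultures, so the p-values below measure the spread between these libraries.

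Neurotrophins bind Trk receptor kinases, BDNF chiefly TrkB and neurotrophin 3 chiefly TrkC. Both also bind the receptor encoded by Ngfr. GDNF and artemin do not bind RET alone but first bind a co-receptor on the membrane, GFRα1 for GDNF and GFRα3 for artemin. In development, artemin guides sympathetic axons along blood vessels.

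The members lie on separate loci of GRCm39. Bdnf spans chr2:109505045-109557475 on the plus strand, Ntf3 chr6:126078375-126143873 on the minus strand, Gdnf chr15:7840327-7867060 on the plus strand and Artn chr4:117783113-117786993 on the minus strand. Of the receptors, Ntrk2 spans chr13:58954176-59281784 on the plus strand, Ntrk3 chr7:77825707-78387760, Ngfr chr11:95459638-95478561 and Ret chr6:118128706-118174769, the last 3 on the minus strand. No member shared exon bases with another gene of its own strand, and the reads were counted by strand. Antisense genes covered 13.5% of the exon bases of Bdnf, 12.3% of those of Ntf3 and 1.24% of those of Ntrk3.

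Depth was even. Reads on genes, recovered for 14 of the 16 libraries, ranged from 31900689 to 41632381. The labelled identities held in part. The ganglia held all 10 sympathetic neuron markers and all 9 glial markers, none of them under a normalized count of 10 throughout, together with fibroblast, macrophage, endothelial and mural markers. The stellate cells held 5 of 7 stellate markers, while Gfap was under 10 and Lrat was at 0 in all 6 libraries. The ganglia held stellate markers as well, with only Lrat of the 7 under 10 throughout in SCG and none in SCG+MEF and SCG+PSC. In the stellate cells, 7 of the 10 neuron markers were under 10. In bulk libraries of this kind, fewer cells of a type and less RNA per cell cannot be told apart.

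To ask which side held the ligands and which the receptors, levels were expressed as RPKM, reads scaled to the length of the exons and to the library total, on which genes can be compared. Of the 8 members, the stellate cells carried mainly Bdnf, and the ganglia carried the receptors together with Gdnf and Artn. In PSC libraries Bdnf stood first with a level of 3.57 ± 0.707 (SD, n = 3), followed by Ngfr with 1.20 ± 0.616. The levels of Ngfr, Artn (0.512 ± 0.248) and Gdnf (0.332 ± 0.135) overlapped with their neighbours in this order. Ret came next with 0.109 ± 0.0313. The lowest levels were those of Ntf3 (0.0273 ± 0.0271) and Ntrk3 (0.0197 ± 0.00876), which overlapped, and Ntrk2 was at 0 in all 3 PSC libraries.

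The order in the ganglia was another. Ngfr stood first in SCG libraries with a level of 575 ± 52.1 (SD, n = 3), and Ret followed with 47.6 ± 10.97. Artn (16.8 ± 6.75) and Gdnf (15.0 ± 4.77) overlapped with each other and lay below Ret. Bdnf was lower, with 2.85 ± 0.747, and the Trk receptor genes lower still, Ntrk2 with 1.04 ± 0.147 and Ntrk3 with 0.377 ± 0.121. Ntf3 closed the order with 0.0563 ± 0.0588. Only Artn and Gdnf overlapped among neighbours, and the ranks of all 8 members were the same in SCG+MEF and SCG+PSC. The levels depend on the length used. With the longest transcript in place of all exons, Ntrk2 in SCG was 3.43 and Bdnf was 6.15 in PSC and 4.92 in SCG, with the order of the members in SCG the same and Ntrk3 and Ntf3 changing places in PSC.

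**Figure D1:**
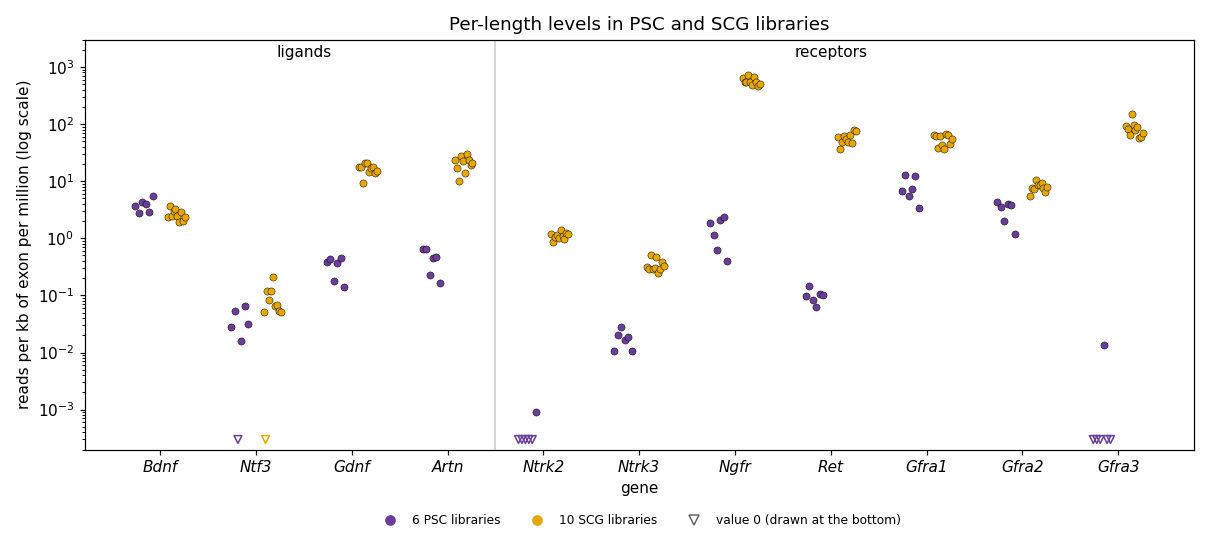
Per-length levels of the members and of their main partners, in RPKM (reads scaled to exon length and library total) on a log axis. Each point is 1 library, with the 6 stellate cell libraries in purple and the 10 ganglion libraries in yellow, and values of 0 are drawn as open triangles at the bottom. Bdnf overlaps between the cell types, while the ganglion points of Gdnf, Artn, Ngfr and Ret lie far above the stellate cell points.

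Across the 16 libraries the 2 GDNF family ligands were ganglion transcripts. The level of Gdnf was 0.141 to 0.446 over the 6 stellate cell libraries and 9.46 to 21.2 over the 10 ganglion libraries. That was a 50.5-fold difference of the means. Artn was 0.166 to 0.659 in stellate cells and 9.92 to 29.5 in ganglia, or 47.1-fold. Neither gene overlapped between the cell types. The tables were normalized separately and each cell type was its own preparation, so these differences are given as a description without a test.

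Bdnf was the exception among the ligands. Its level was 2.83 to 5.58 in stellate cells with a median of 3.84, and 1.90 to 3.71 in ganglia with a median of 2.47. The mean over the stellate cell libraries was 1.47-fold that over the ganglion libraries, with overlapping libraries. Ntf3 was close to the limit of detection on both sides, at 0 to 0.0640 in stellate cells and 0 to 0.213 in ganglia.

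The receptor genes separated the cell types. Ngfr was 0.405 to 2.37 in stellate cells and 471 to 708 in ganglia, a 401-fold difference of the means. Ret was 0.0630 to 0.144 against 36.2 to 80.2, or 583-fold. Ntrk3 was 0.0105 to 0.0282 against 0.244 to 0.516, or 19.5-fold. Ntrk2 was at 0 in 5 of 6 stellate cell libraries and at a normalized count of 1.06, 1 read, in PSC+SCG replicate 3. A count of 0 allows up to 3 reads, or 2.54 to 3.41 normalized counts in the stellate cell libraries with recovered reads, a limit that covers counting error only. In the ganglia Ntrk2 was at an RPKM of 0.878 to 1.42.

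Partners of the members from the wider family list included the co-receptors. Gfra3, the artemin co-receptor, was at 56.8 to 149 in ganglia and at 0 in 5 of 6 stellate cell libraries. Gfra1 and Gfra2, the co-receptors of GDNF and neurturin, were held by both cell types, with medians of 7.02 and 3.68 against 58.1 and 7.82 in ganglia. Stellate cells held co-receptor transcripts at a higher level than those of Ret itself. Of further ligands, Nrtn (neurturin) and Ntf5 (neurotrophin 4) were low on both sides, Nrtn at a median of 0.231 in stellate cells and 0.275 in ganglia, and Ntf5 at 0.310 and 0.104.

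The comparison of PSC+SCG with PSC asked whether nearby ganglia change the stellate cells. None of the 7 members tested was past the threshold, an adjusted p of 0.05 or less together with a log2 difference of 0.5 or more. The test was limma on log2(normalized count + 1) with Benjamini-Hochberg adjustment, on a scale where the pseudocount understates differences of low genes. Across all 21273 genes 0 were called, or 0%, with 408 at an unadjusted p under 0.05 but no member among them, and edgeR on the 5 libraries with recovered reads called 0 as well. Ntrk2 summed to under 10 and was not tested.

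Bdnf, the most abundant of these ligands in stellate cells, had normalized counts of 972, 776 and 1190 in PSC replicates 1 to 3 and 1103, 788 and 1645 in PSC+SCG replicates 1 to 3. Each coculture library lay above the library of the same number, but the groups overlapped. The log2 difference was 0.22 (SE 0.27, 95% interval -0.39 to 0.83, limma adjusted p = 1). Without PSC+SCG replicate 3 it was -0.05. In the fit of all 6 libraries with the replicate number as a block, the limma adjusted p was 0.664.

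Artn in stellate cells moved the other way. It had normalized counts of 80.3, 81.7 and 28.9 in PSC and 57.3, 57.2 and 22.3 in PSC+SCG. All 3 same-number pairs were lower in coculture, while the 2 libraries of number 3 were lower than the other 4, so the groups overlapped. The log2 difference was -0.45 (SE 0.53, interval -1.64 to 0.75, limma adjusted p = 1). It was -0.93 without PSC replicate 3 and -0.0075 without PSC+SCG replicate 3. In the fit of all 6 libraries with the replicate number as a block, the limma adjusted p was 0.792.

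The remaining stellate cell members had overlapping groups. Gdnf had normalized counts of 50.7, 56.8 and 24.1 in PSC and 49.4, 58.2 and 20.2 in PSC+SCG, a log2 difference of -0.08 (interval -1.22 to 1.06). Ngfr had 225, 142 and 80.0 in PSC and 255, 290 and 54.3 in PSC+SCG, a difference of 0.22 (interval -1.22 to 1.66) that turned to between -0.12 and -0.21 without PSC replicate 3, PSC+SCG replicate 1 or PSC+SCG replicate 2. Replicate 3 was the lowest library of each group for Gdnf, Artn and Ngfr and the highest for Bdnf. Ret had 25.4, 38.6 and 23.1 against 16.8, 27.6 and 28.7, and Ntrk3 had 11.8, 22.7 and 32.8 against 18.8, 20.7 and 12.8, both with overlapping groups. Ntf3 was at 0 to 3.95 in the 6 libraries. The intervals for Ngfr and Gdnf hold a log2 difference of 1. They come from the fit without a block and so include the spread between replicate numbers. Same-number differences were -0.037, 0.036 and -0.242 for Gdnf and 0.181, 1.027 and -0.551 for Ngfr. With the replicate number as a block, the limma adjusted p was 0.997 for Gdnf and 0.968 for Ngfr.

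**Figure D2:**
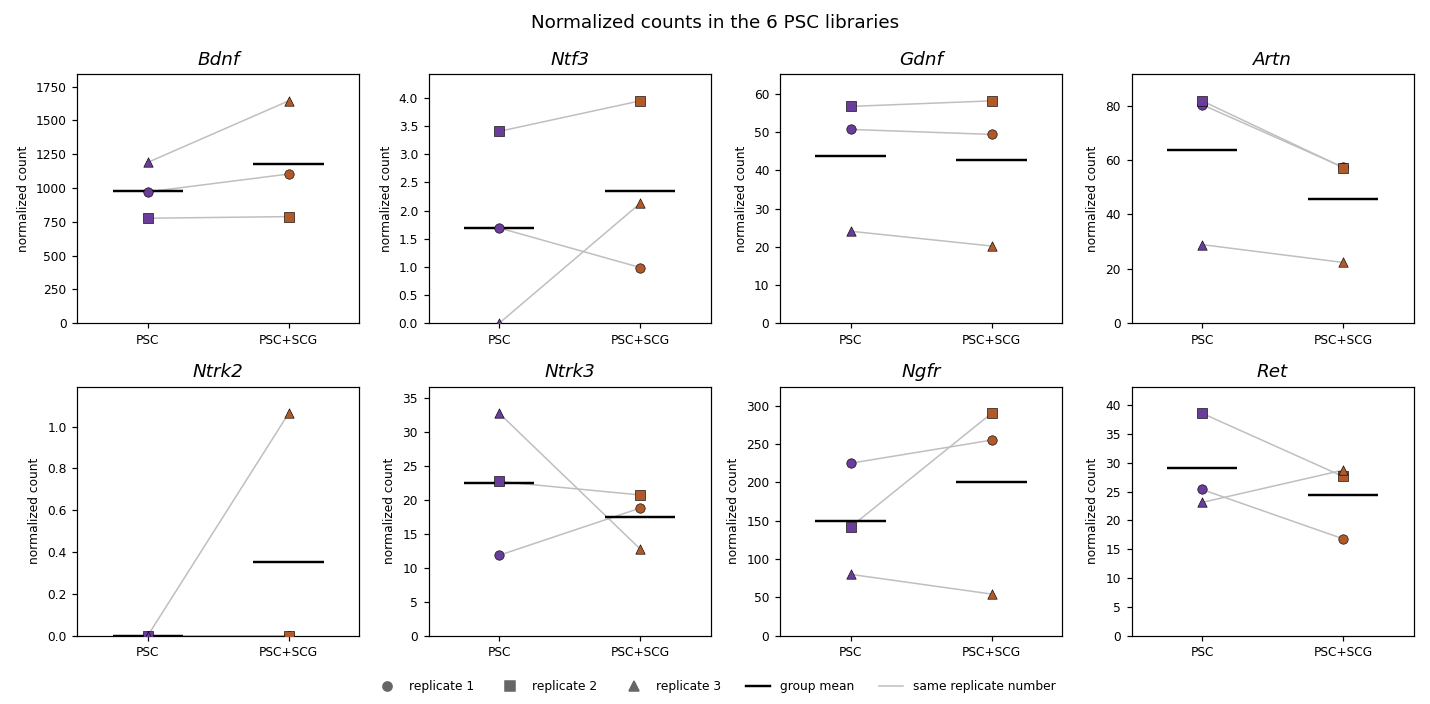
Normalized counts of the 8 members in the 6 stellate cell libraries, on linear axes that start at 0 and differ between genes. Symbols give the replicate number, grey lines join libraries of the same number and black bars are group means. The lines of Bdnf rise and those of Artn fall in all 3 pairs, and the distance between replicate 3 and the others exceeds the distance between the groups for Gdnf and Artn.

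The ganglia were compared 3 ways, with 9 libraries in 1 limma model: each coculture with SCG alone, and SCG+PSC with SCG+MEF. The first and second comparison share the SCG libraries and each coculture group enters a pair of comparisons, so they are not independent of each other. SCG+PSC replicate 4 is given as a value and entered only alternatives. None of the 8 members was past the threshold in any of the 3, where 0.0128%, 0.0128% and 0% of the 23491 genes tested were called, and 0 members had an unadjusted p under 0.05. edgeR and DESeq2 without a block called 0 members as well.

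Same-number libraries deviated together in both tables, and a block for the replicate number moved 1 member. With it, limma called 1.33% of all genes in SCG+PSC against SCG (1.21% higher), 0.162% in SCG+MEF against SCG, 0.788% in SCG+PSC against SCG+MEF and 0.461% in PSC+SCG against PSC. The member called was Artn, higher in SCG+PSC than in SCG, or 1 of 8. With the block it was also called by edgeR and DESeq2, which called 1.38% and 1.78% of all genes in that comparison. No other member was called in any of the 4 comparisons. At an unadjusted p under 0.05 the block gave 4 members in SCG+PSC against SCG, 4 in SCG+MEF against SCG and 1 in SCG+PSC against SCG+MEF, beside 2511, 1771 and 2750 of all 23491 genes tested.

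Artn, the ligand of GFRα3 and RET, had its highest mean in the ganglia cocultured with stellate cells. Its normalized counts were 2750, 2018 and 1210 in SCG replicates 1 to 3, 3335, 2629 and 1690 in SCG+MEF replicates 1 to 3, and 3524, 2761, 2241 and 2420 in SCG+PSC replicates 1 to 4. Within each replicate number the order was SCG, SCG+MEF, SCG+PSC, whereas between numbers the libraries of number 1 were the highest and those of number 3 the lowest in each group, so that the groups overlapped. Against SCG, the log2 difference in SCG+PSC was 0.57. Its standard error was 0.32 without the block (interval -0.14 to 1.27, limma adjusted p = 1) and 0.0975 with it (interval 0.35 to 0.78, limma adjusted p = 0.0144). Over all alternatives the adjusted p ran from 4.56e-05 (DESeq2 with the block) to 1.

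The size of the Artn difference rested in part on replicate 3. The same-number differences were 0.36, 0.45 and 0.89 on the log2 scale for numbers 1, 2 and 3. Without the block the difference was 0.25 without SCG replicate 3 and 0.84 without SCG replicate 1. With the block, leaving out SCG replicate 3 gave 0.46 (limma adjusted p = 0.0969) and leaving out SCG+PSC replicate 3 gave 0.43 (limma adjusted p = 0.0271), both outside the threshold, and the other 7 fits without 1 library stayed inside it.

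The 3T3 cells gave a smaller Artn value that did not pass. In SCG+MEF the log2 difference from SCG was 0.38 (interval -0.32 to 1.08), with same-number differences of 0.28, 0.38 and 0.48. Without the block it ran from 0.060 without SCG replicate 3 to 0.65 without SCG replicate 1. The direct comparison of SCG+PSC with SCG+MEF gave 0.19 (interval -0.52 to 0.89), higher in 3 of 3 pairs, and was not called with or without the block. A difference between the effects of stellate cells and 3T3 cells on Artn was thus not shown.

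Markers of other cell types also differed in SCG+PSC against SCG. The summed normalized count of the 4 proliferation markers was 2695 to 13130 in SCG, 3750 to 13660 in SCG+MEF and 10420 to 18900 in SCG+PSC, and with the block all 4 (Mki67, Top2a, Ccnb1 and Cdk1) were called higher in SCG+PSC than in SCG. Lum, 1 of 7 fibroblast markers, and Mrc1, 1 of 7 macrophage markers, were also called higher with the block, at list sums of 208300 to 390800 against 281800 to 390600 and of 5588 to 8870 against 6223 to 7719. Of the 7 fibroblast markers, 6 were above 0 (median log2 difference 0.38), and 5 had an unadjusted limma p under 0.05 with the block. Of the 7 macrophage markers, 2 were above 0 (median -0.08). None of the 5 endothelial markers was called, but all 5 had an unadjusted p under 0.05, 4 of them higher, with a median log2 difference of 0.76 and sums of 3418 to 4333 against 3930 to 4131. The 4 mural markers had differences below 0 and were not called (median log2 difference -0.49, sums of 12330 to 35260 against 12600 to 14630). No marker of the 10 for neurons (sums of 140200 to 304300 against 159300 to 283800), the 9 for glia (60560 to 78360 against 63010 to 77510) or the 7 for stellate cells (205600 to 348900 against 231300 to 332800) was called. The part of these shifts in the Artn value was not tested.

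Gdnf, the other GDNF family ligand, had its highest mean beside 3T3 cells. Normalized counts were 2168, 2254 and 1225 in SCG, 2588, 2678 and 1893 in SCG+MEF, and 2134, 2231, 1770 and 1917 in SCG+PSC. SCG replicate 3 was the lowest of the 10 libraries, and all groups overlapped. Each SCG+MEF library lay above the SCG library of its number, with a log2 difference of 0.38 (SE 0.23, interval -0.14 to 0.89, limma adjusted p = 1) that was 0.094 without SCG replicate 3. Against SCG, SCG+PSC differed by 0.16 (interval -0.35 to 0.68), a value that came from number 3 and was -0.12 without SCG replicate 3.

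Bdnf in the ganglia had its lowest mean beside stellate cells. Normalized counts were 617, 958 and 652 in SCG, 781, 855 and 676 in SCG+MEF, and 499, 750, 527 and 604 in SCG+PSC. All 3 same-number pairs were lower in SCG+PSC, both against SCG and against SCG+MEF, but replicate 2 was the highest library in each group and the groups overlapped. Without the block, the log2 difference was -0.32 against SCG (SE 0.21, interval -0.78 to 0.14). Against SCG+MEF it was -0.40 (SE 0.21, interval -0.86 to 0.07), and each had a limma adjusted p of 1. Same-number differences were -0.305, -0.352 and -0.307 against SCG and -0.645, -0.188 and -0.36 against SCG+MEF. Over the limma, edgeR and DESeq2 alternatives without leaving out a library, the lowest adjusted p was 0.197 against SCG. It was 0.0657 against SCG+MEF, and Bdnf was called in neither. SCG+MEF and SCG differed by 0.08 (interval -0.39 to 0.54).

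Ntf3 was counted by at most 13 reads in a library with recovered reads. Its normalized counts were 3.04, 0 and 7.17 in SCG, 5.07, 7.01 and 13.2 in SCG+MEF, and 3.84, 4.05, 3.20 and 3.03 in SCG+PSC. It was the only member with groups that did not overlap, lying lower in all SCG+PSC libraries than in all SCG+MEF libraries, as 3.47% of all genes tested did in that direction. The log2 difference was -0.91 with an interval of -2.53 to 0.70, and at such counts no change was detectable.

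**Figure D3:**
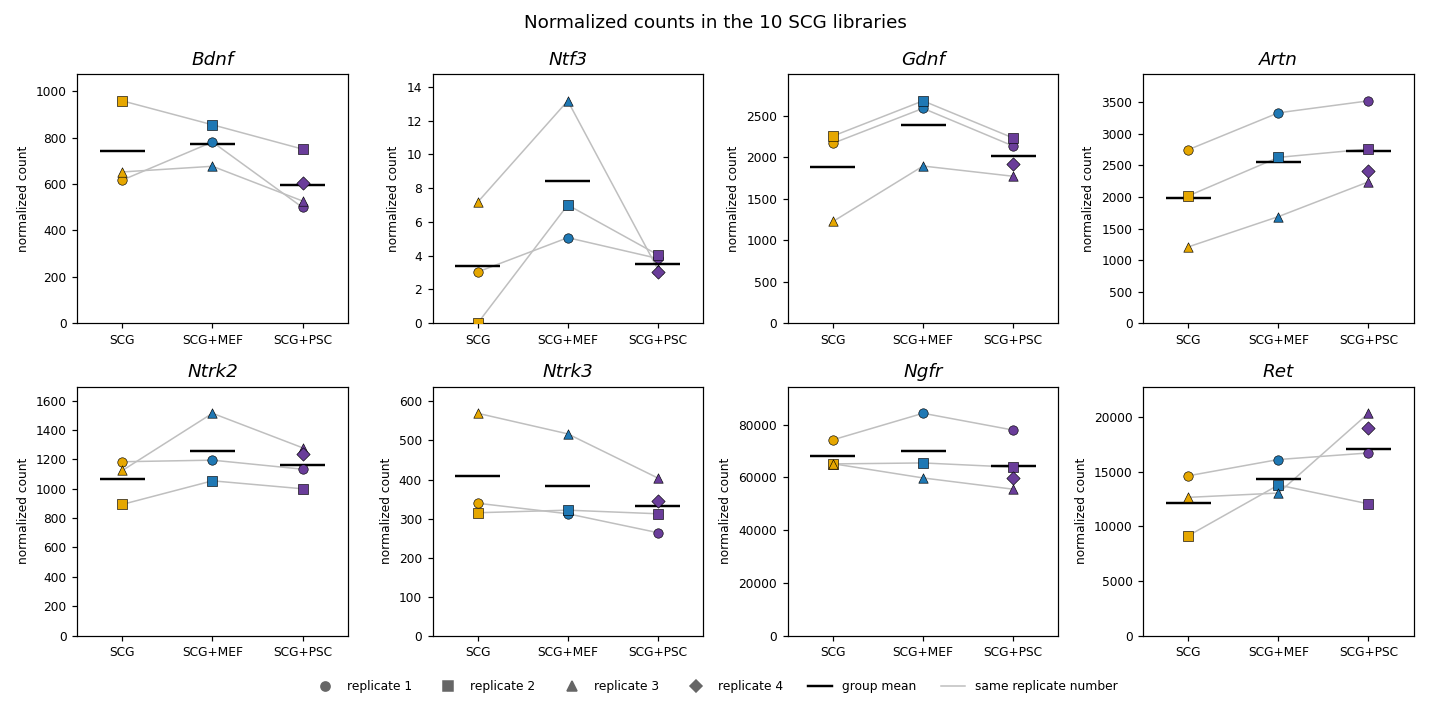
Normalized counts of the 8 members in the 10 ganglion libraries, on linear axes that start at 0 and differ between genes. Symbols give the replicate number, grey lines join libraries of the same number and black bars are group means, which include replicate 4 of SCG+PSC. The 3 lines of Artn rise from SCG over SCG+MEF to SCG+PSC without crossing, while the groups overlap.

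Among the receptors, Ret had the widest shift. Its normalized counts were 14610, 9132 and 12639 in SCG, 16098, 13768 and 13034 in SCG+MEF, and 16698, 12046, 20325 and 19011 in SCG+PSC. Replicate 2 was the lowest library in SCG and SCG+PSC, and replicates 3 and 4 of SCG+PSC were the highest of the 10. These 2 libraries were more alike than any other pair of a group, with a chi-square per gene over normalized counts of 7.80 against 31.4 to 182. That is above sampling noise, so they were kept as 2 libraries, and replicate 4 did not enter the main test. The log2 difference between SCG+PSC and SCG was 0.43 (SE 0.21, interval -0.05 to 0.90, limma adjusted p = 1), higher in 3 of 3 pairs. Its lowest adjusted p over the alternatives was 0.0281, from DESeq2 with the block, at a log2 difference under the minimum of 0.5. Against SCG+MEF the difference was 0.17 (interval -0.31 to 0.64) and was -0.01 without SCG+PSC replicate 3.

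Ngfr, the most abundant member, differed little. Normalized counts were 74293, 65147 and 65225 in SCG, 84358, 65514 and 59825 in SCG+MEF, and 77988, 63916, 55559 and 59854 in SCG+PSC. The library of number 1 was the highest in each group. The log2 difference was -0.06 for SCG+PSC against SCG (interval -0.43 to 0.31), 0.02 for SCG+MEF against SCG (interval -0.35 to 0.39) and -0.09 for SCG+PSC against SCG+MEF (interval -0.46 to 0.29). These intervals leave out differences of 0.5 or more in either direction.

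The Trk receptor genes were not called either. Ntrk2 had normalized counts of 1184, 893 and 1124 in SCG, 1194, 1054 and 1513 in SCG+MEF, and 1133, 999.5, 1279 and 1239 in SCG+PSC, and its log2 difference between SCG+PSC and SCG was 0.09 (interval -0.28 to 0.47). Ntrk3 had 339, 315 and 570 in SCG, 312, 321 and 517 in SCG+MEF, and 264, 312, 404 and 344 in SCG+PSC. Number 3 was the highest library of Ntrk3 in each group. Its difference between SCG+PSC and SCG was -0.29 (interval -0.90 to 0.33), lower in 3 of 3 pairs, and was -0.023 without SCG replicate 3.

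**Figure D4:**
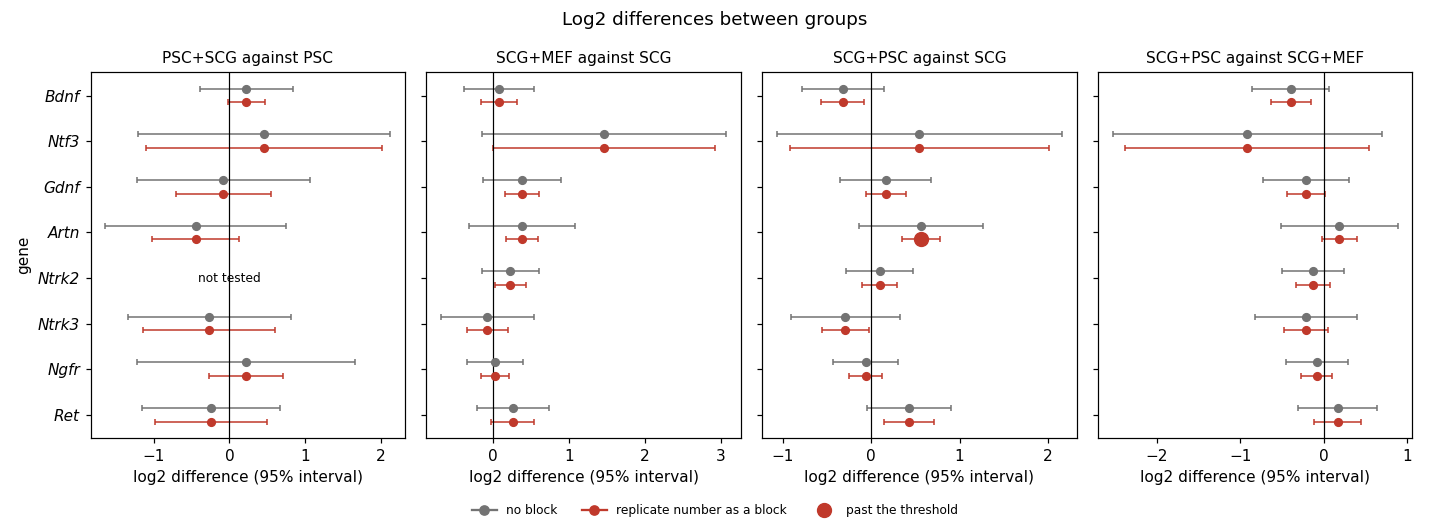
Log2 differences of the members in the 4 comparisons with 95% intervals from limma, without a block in grey and with the replicate number as a block in red. Large symbols mark values past the threshold. Artn in SCG+PSC against SCG, at 0.57, is the only one.

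Medians over the members are given beside those of all genes as a description. The median log2 difference of the 8 members was 0.13 in SCG+PSC against SCG (all genes 0.0024), 0.24 in SCG+MEF against SCG (all genes 0.018) and -0.17 in SCG+PSC against SCG+MEF (all genes -0.0072). Of the 8, 5 were above 0 in the first comparison, 7 in the second and 2 in the third. In stellate cells the median of 7 members was -0.08 (all genes -0.0077), with 3 above 0.

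The wider pathway was described by 4 lists, none of which had a gene called by limma without the block. With the block, 1 of 8 genes for processing of proneurotrophins was called higher in SCG+PSC against SCG. This was Plau, the urokinase plasminogen activator, with normalized counts of 363, 713 and 508 in SCG, 634, 1126 and 739 in SCG+MEF and 831, 1025, 1052 and 942 in SCG+PSC. Its log2 difference was 0.92 (limma adjusted p = 0.00792 with the block and 1 without it), and the SCG+PSC libraries lay above all SCG libraries, as 4.24% of genes tested did. The call was lost without SCG replicate 1 (limma adjusted p = 0.0514) and without SCG replicate 3 (0.0707).

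Of 20 genes known to respond to neurotrophins or GDNF, 1 was called with the block, Mmp3 (stromelysin 1) in PSC+SCG against PSC. It had normalized counts of 1004, 377 and 271 in PSC and 2828, 4228 and 1056 in PSC+SCG. The log2 difference was 2.31 (SE 0.57 without the block, limma adjusted p = 1.36e-06 with the block and 1 without it). Same-number differences were uneven, at 1.49, 3.48 and 1.96, and leaving out 1 library with the block gave 1.73 to 2.72. Mmp3 encodes a matrix protease. No gene of this list was called in the ganglia. None of the 30 tested genes of the list of adaptors and partners of the receptors was called in any comparison. The list of other ligands and receptors had 1 of 15 called with the block, Gfra3, lower in SCG+PSC against SCG+MEF.

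Gfra3 pairs with Artn as its co-receptor. Its normalized counts were 6214, 5498 and 4447 in SCG, 10261, 6484 and 5513 in SCG+MEF, and 6136, 3923, 4058 and 4706 in SCG+PSC. Each SCG+PSC library with a same-number partner lay below it in both other groups, and the groups overlapped. The log2 difference from SCG+MEF was -0.64 (limma adjusted p = 0.0219 with the block and 1 without it). Artn, Ret and Gfra3, the ligand, receptor and co-receptor of 1 signal, thus had differences of 0.57, 0.43 and -0.21 in SCG+PSC against SCG, of which the first passed with the block alone.

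Genes whose pattern over the libraries was most like that of a member were named as a description. Across the 10 ganglion libraries and 12848 genes, Artn was most like Zfp28 (Pearson r = 0.955), Mrgprf (0.948) and Syt6 (0.937). Ret was most like Slc19a1 (0.983), Adgrg2 (0.952) and St8sia4 (0.941), and Bdnf like Dglucy (0.926), Adamtsl4 (0.924) and Cc2d2a (0.914). Gdnf was most like Upf3b (0.983), Ngfr like Arhgef10l (0.973), Ntrk2 like Psd3 (0.972) and Ntrk3 like Tmcc3 (0.967). No member was among the nearest 3 of another. In the 6 stellate cell libraries Bdnf was most like Slco2a1 (0.998), Artn like Mrpl24 (0.996) and Ngfr like Bbs2 (0.998) over 11665 genes. The libraries share replicate numbers and groups, so these values carry no test.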

How the data were processed

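The libraries and groups are those described above, taken from the labels. The authors aligned stranded reads with STAR 2.7.10b to GRCm39, counted them per gene on GENCODE M33 and divided each library by its DESeq2 1.38.3 size factor, for the stellate cell and nerve tables apart (R 4.2.2). The deposited values are this signal, the normalized counts. Their steps gave whole reads for 14 libraries, not accepted for PSC+SCG replicate 1 and SCG+PSC replicate 4.

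Log2(normalized count + 1) of genes that summed to 10 or more was tested with limma 3.58.1 in R 4.3.3 (empirical Bayes with trend), and p-values were adjusted over all genes. The nerve fit held replicates 1 to 3 of each group, those shown by the study. The study's model held a date that no label ties to a library, so the main fit had no block. Deviations of same-number libraries correlated at 0.567 to 0.823 (stellate cells, 13036 genes) and 0.376 to 0.762 (nerve, 14045 genes), against -0.696 to 0.336 and -0.573 to 0.0908 for other numbers, so the replicate number was taken as pairing and its block as an alternative. Other alternatives were pseudocounts of 0.5 and 8, other filters, quantile normalization, all 4 SCG+PSC libraries, the 2 groups alone, edgeR 4.0.16, DESeq2 1.42.0 and leaving out each library. Added after seeing the data were the block with a pseudocount of 8, with quantile normalization and with each library left out. The fit was also run on simulated counts, which held a replicate effect only where the block was used. That run does not show how the fit without a block handles differences between replicate numbers.

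Exon lengths and positions came from GENCODE M39 on GRCm39 with all annotated transcripts, whereas the study counted reads on the basic M33 annotation. The lengths can thus hold exons on which no reads were counted. Named genes were the members, family ligands and receptors by level (some are not reported here), list genes called in a comparison and, for members with a mean of 50 or more, the 3 genes of highest Pearson r. Members and lists were chosen with earlier results of these data known.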

Additional observations from a re-analysis of the deposited data

Results flagged for a closer look

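The effect of stellate cells and that of 3T3 cells on Gfra3, the co-receptor of artemin, differed when the replicate number was a block. In limma the difference between the SCG+PSC and SCG+MEF effects was -0.64 on the log2 scale (adjusted p = 0.0219), since both share the SCG control and it equals the direct comparison. Gfra3 was higher in SCG+MEF than in SCG in 3 of 3 same-number pairs (log2 0.42, pairs 0.724, 0.238 and 0.31). It was lower in SCG+PSC than in SCG (-0.21), with uneven same-number differences of -0.018, -0.487 and -0.132. Neither of these comparisons was past the threshold. Without the block the adjusted p was 1. The call with the block was lost without SCG+MEF replicate 1 (-0.53, adjusted p = 0.231), SCG+MEF replicate 3 (-0.71, adjusted p = 0.176) or SCG+PSC replicate 1 (-0.66, adjusted p = 0.0843). Cell type markers also differed in SCG+PSC against SCG+MEF. Of the 10 neuron markers, 1 was above 0 (median log2 difference -0.15) and none was called. In SCG+MEF against SCG all 10 were above 0 (median 0.12). With the block, limma called Fabp7, 1 of 9 glial markers, and all 4 proliferation markers higher in SCG+PSC than in SCG+MEF. Lum, 1 of 7 fibroblast markers, was called lower. The part of these shifts in the Gfra3 value was not tested.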

How the results depend on the processing

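Over the alternatives without leaving out a library, 441 of 450 member differences kept their direction and side of the threshold, 5 (Artn in SCG+PSC against SCG) passed it and 4 (Ngfr) reversed. The replicate block changed no other member call. With the block, the block and a pseudocount of 8, and the block and quantile normalization, the genes called numbered 98, 96 and 78 in PSC+SCG against PSC (0 without the block), 313, 290 and 267 in SCG+PSC against SCG (3), 38, 34 and 36 in SCG+MEF against SCG (3), and 185, 163 and 163 in SCG+PSC against SCG+MEF (0). edgeR with the block gave 327, 36 and 212 in the 3 nerve comparisons, DESeq2 59, 22 and 18, and DESeq2 with the block 421, 110 and 371. All 4 SCG+PSC libraries gave 8 in SCG+PSC against SCG, and a fit of the 2 groups alone gave 1 there and 1 in SCG+MEF against SCG. Leaving out 1 library gave 1 to 2 and 0 to 3. The members past it in SCG+PSC against SCG rose from 0 to 1 in the 5 fits with the block (those 3, edgeR and DESeq2).

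Quantile normalization, with or without the block, turned Ngfr to 0.043 in SCG+PSC against SCG and 0.012 in SCG+PSC against SCG+MEF. Leaving out 1 library reversed 28 of 256 member differences, none of them called. The ranges in PSC+SCG against PSC were -0.048 to 0.48 (Bdnf), -0.14 to 0.79 (Ntf3), -0.46 to 0.37 (Gdnf), -0.65 to 0.052 (Ntrk3) and -0.21 to 0.99 (Ngfr). In SCG+PSC against SCG they were -0.29 to 1.22 (Ntf3), -0.12 to 0.32 (Gdnf), -0.028 to 0.18 (Ntrk2) and -0.19 to 0.052 (Ngfr). In SCG+MEF against SCG they were -0.043 to 0.27 (Bdnf), -0.31 to 0.19 (Ntrk3) and -0.12 to 0.13 (Ngfr). In SCG+PSC against SCG+MEF they were -0.084 to 0.41 (Artn), -0.25 to 0.012 (Ntrk2), -0.38 to 0.022 (Ntrk3), -0.21 to 0.058 (Ngfr) and -0.0061 to 0.37 (Ret). The cause was not tested.

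With the longest transcript as length, 21 of 40 levels stayed within the SD of their group (Ntrk2 in SCG rose from 1.04 to 3.43), and Ntrk3 and Ntf3 changed places in PSC. Scaled to protein-coding genes, 40 of 40 stayed within it. Ntf3 in both cell types and Ntrk2 in stellate cells lie too near 0 reads for a change to be seen at this depth. Count tests could not use the 2 libraries without recovered reads.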
